A study of Mus musculus with 18 samples.

Results

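The genes described here are 34 genes of sterol and fatty acid synthesis together with the genes that control them through the SREBP transcription factors, chosen by gene name. They were followed in 6 RNA-seq samples of splenic CD23+ B cells from female F1 129S1/Cast mice that were Xist+/-. In all of these mice the Cast X chromosome was the inactive one, per the labels, so the 129 X chromosome was the active one. Xist is the RNA that silences the X chromosome from which it is transcribed. The naive group held 3 samples without treatment, and the CpG group held 3 samples stimulated in vitro with 1 µM CpG, a bacterial-type DNA motif sensed by a Toll-like receptor of B cells, and collected after 24 h. The naive cells were therefore not a group cultured without CpG, so stimulation and culture cannot be told apart. Another 12 samples of the series are not analysed here. Each sample had 1 table of reads per gene for the 129 allele and 1 for the Cast allele, and the comparison asked how the genes changed on each allele. Of the 34 genes, 32 had a row in the 129 tables, out of 30004 named genes, and 33 had a row in the Cast tables, out of 29102. Insig1 and Acaca had no row in the 129 tables, and Acat2 had none in the Cast tables.

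Cells build cholesterol from acetyl-CoA, first along the mevalonate pathway to isoprenoid units, then from squalene to the sterol ring and through a series of reductions and demethylations to cholesterol. Fatty acids are built from the same precursor by citrate cleavage, carboxylation and chain synthesis, and are then lengthened by elongases and given double bonds by desaturases. SREBP proteins, the products of Srebf1 and Srebf2, are held in the endoplasmic reticulum by Scap and the Insig proteins while sterols are plentiful. When sterols fall, Scap carries SREBP to the Golgi, where proteases release the part that enters the nucleus and raises transcription of the synthesis genes. Activated lymphocytes are known to raise lipid synthesis before they divide. Read counts measure RNA and not the cleavage of SREBP.

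Promoters of 27 of the 34 genes were found in the RefSeq promoter table (assembly GRCm38.p6, the C57BL/6J reference and not the 129S1 or Cast genome). Shown are the 250 bases before the listed start, 5′ to 3′ on the strand of the gene, for Hmgcs1, Idi1 and Cyp51, which are among the sterol genes with the largest changes below, for Insig1, and for the X-linked genes Ebp and Nsdhl. Capitals mark matches, on either strand, to CCAAT, the box bound by the factor NF-Y, and to TCACNCCAC, a form of the sterol regulatory element that SREBP binds. The regions are chr13:119690101-119690350 on the plus strand for Hmgcs1, chr13:8885356-8885605 on the plus strand for Idi1, chr5:4104698-4104947 on the minus strand for Cyp51, chr5:28071162-28071411 on the plus strand for Insig1, chrX:8193513-8193762 on the minus strand for Ebp and chrX:72918271-72918520 on the plus strand for Nsdhl.
Hmgcs1: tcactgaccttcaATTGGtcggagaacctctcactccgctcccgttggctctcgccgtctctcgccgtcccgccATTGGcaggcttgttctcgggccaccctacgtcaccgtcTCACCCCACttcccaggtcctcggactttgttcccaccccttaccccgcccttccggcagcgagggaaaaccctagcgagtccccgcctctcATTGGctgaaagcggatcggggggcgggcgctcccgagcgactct
Idi1: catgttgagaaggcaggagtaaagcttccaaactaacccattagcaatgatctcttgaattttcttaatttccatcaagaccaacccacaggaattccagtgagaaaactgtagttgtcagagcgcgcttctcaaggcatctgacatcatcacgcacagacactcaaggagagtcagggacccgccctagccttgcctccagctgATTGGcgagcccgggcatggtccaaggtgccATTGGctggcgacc
Cyp51: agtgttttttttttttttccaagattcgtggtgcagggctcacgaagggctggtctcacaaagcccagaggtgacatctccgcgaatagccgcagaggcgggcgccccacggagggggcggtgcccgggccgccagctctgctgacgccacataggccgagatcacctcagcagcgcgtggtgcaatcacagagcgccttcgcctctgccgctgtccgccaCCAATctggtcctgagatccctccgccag
Insig1: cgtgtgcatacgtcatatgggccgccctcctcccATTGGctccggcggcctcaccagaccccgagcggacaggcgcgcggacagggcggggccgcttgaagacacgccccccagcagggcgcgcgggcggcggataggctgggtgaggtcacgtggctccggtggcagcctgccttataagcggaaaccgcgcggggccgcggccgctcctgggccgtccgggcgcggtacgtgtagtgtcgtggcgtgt
Ebp: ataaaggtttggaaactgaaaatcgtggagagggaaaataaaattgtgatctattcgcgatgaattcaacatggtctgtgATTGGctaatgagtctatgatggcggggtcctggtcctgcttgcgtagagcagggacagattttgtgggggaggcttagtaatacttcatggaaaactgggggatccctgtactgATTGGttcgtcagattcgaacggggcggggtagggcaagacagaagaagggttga
Nsdhl: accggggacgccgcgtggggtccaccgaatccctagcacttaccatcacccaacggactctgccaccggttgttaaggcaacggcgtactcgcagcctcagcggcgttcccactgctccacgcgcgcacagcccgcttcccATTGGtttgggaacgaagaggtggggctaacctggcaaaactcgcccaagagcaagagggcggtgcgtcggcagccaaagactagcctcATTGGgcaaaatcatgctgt

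A CCAAT match on either strand lay in 20 of the 27 promoters, and in 13 of the 15 promoters of genes of the mevalonate and cholesterol steps, against 34.5% of all 27025 promoters of the same length. The Hmgcs1 promoter held 3 such matches and those of Idi1, Ebp and Nsdhl held 2 each. The letters TCACNCCAC were found in 1 of the 27, that of Hmgcs1, at 137 bases before the start, against 1.04% of all promoters. GGGCGG, the GC box bound by Sp factors, lay in 19 of the 27 promoters and in 32.9% of all. CACGTG, an E-box that SREBP can also bind, lay in 4 of the 27, those of Elovl5, Hsd17b7, Insig1 and Sc5d, and in 6.05% of all. No motif searched contains another. A match describes the letters in this window of the reference genome only.

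After CpG the pathway genes were mostly higher on both alleles. All 32 genes with a row in the 129 tables had enough reads to be tested, and 31 of 33 in the Cast tables. X-linked Ebp and Nsdhl had too few reads on the inactive Cast allele. On the 129 allele 25 of 32 were called at an adjusted p below 0.05 by edgeR (quasi-likelihood test), and all 25 were higher in CpG samples, where 28.2% of all 10581 tested genes were called higher and 27% lower. Of 31 genes tested on the Cast allele, 23 were higher and 1, Scd1, was lower, where 30.7% of all 10365 tested genes were higher and 31.5% lower. Of the 29 genes tested for both alleles, 21 were called in both, all of them higher. The share of all genes called in both was not counted, so this count has no background beside it. The median log2 change was 1.91 over the 32 genes on the 129 allele and 1.80 over the 31 on the Cast allele, against medians of -0.01 and -0.04 over all tested genes. The naive and CpG samples did not overlap for 26 of 32 genes on the 129 allele (64.8% of all tested genes) and for 26 of 31 on the Cast allele (68.5%). The filter on low counts asked for about 10 reads in a library of median size in at least 3 libraries. On the 129 allele 6 of the 32 genes passed it through their CpG samples only (Hmgcs1, Fdps, Fdft1, Elovl1, Elovl6 and Fads2), and on the Cast allele 5 of the 31 (Mvd, Idi1, Fdps, Elovl1 and Fads2). Such a gene could enter the test only by being high after CpG, so its call, given in 5 of the 6 and 4 of the 5 cases, is no independent sign of a change. The medians and the counts without overlap given above include these genes, and no median was taken without them. Of the 26 genes on each allele whose naive samples alone met the filter, 20 were called higher on the 129 allele and 19 on the Cast allele, against 26.7% and 28.2% of all tested genes that met it in the same way. These counts describe a list chosen with earlier results of these data known, and no test was made of the list itself.

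**Figure D1:**
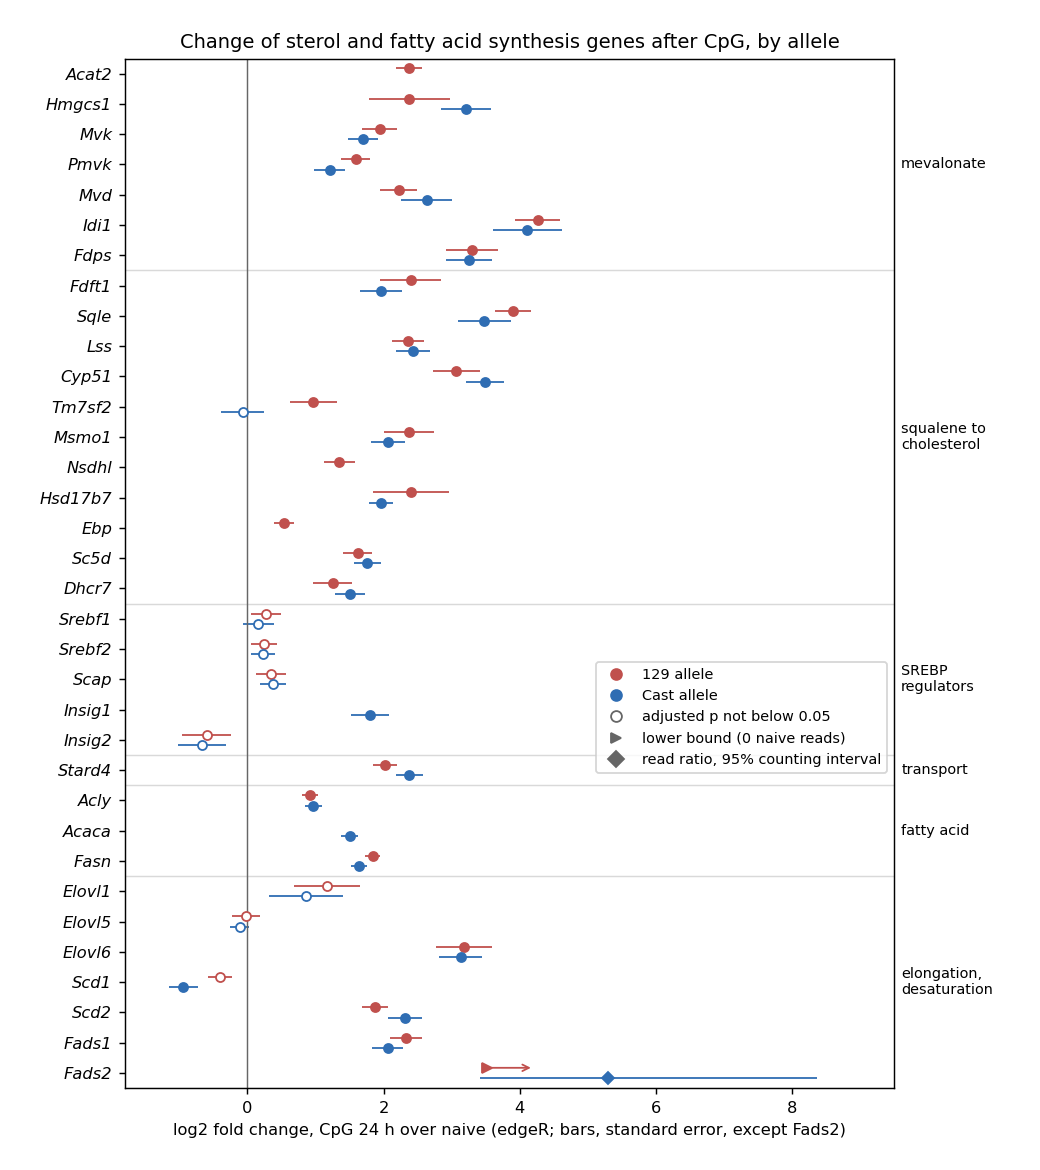
Log2 fold change of each gene after 24 h of CpG over naive, on the 129 allele (red) and the Cast allele (blue), n = 3 samples a group. Bars are standard errors derived from the edgeR log2 change and F statistic, and open points have an adjusted p not below 0.05. For Fads2 the 129 marker is a lower bound and the Cast marker is the ratio of reads with its 95% counting interval. The mevalonate and cholesterol genes lie to the right of 0 where they were fitted, except Tm7sf2 on the Cast allele (-0.07), and Ebp and Nsdhl have a 129 marker only. The markers of Srebf1, Srebf2, Scap and Insig2 lie near 0 or to its left.

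The samples carried the labelled cell type, with other cells in the naive ones. The B cell markers Cd79a and Ms4a1, from a list of 10, had reads in every sample. On the 129 allele the 10 markers summed to 10406 to 13424 CPM (reads scaled to library size with TMM factors) in naive samples. In CpG samples they summed to 4018 to 5630 CPM there, and 9 of the 10 were called lower. On the Cast allele 8 of the 9 tested were called lower. Of all tested genes 27% fell on the 129 allele and 31.5% on the Cast allele. Fcer2a, the gene of CD23, had 636, 1176 and 615 naive and 18, 32 and 31 CpG reads on the 129 allele. Red pulp macrophage markers summed to 3115 to 6830 CPM in naive and 25.2 to 34.5 CPM in CpG samples on the 129 allele, and to 2418 to 5492 against 21.9 to 30.6 CPM on the Cast allele. All 14 tested macrophage markers were called lower in each table. On the 129 allele 3 of the 15 with a row, Cd163 among them, were at 0 in every CpG sample. Erythroid markers summed to 110 to 235 CPM in naive and 1.77 to 3.84 CPM in CpG samples on the 129 allele. T cell markers summed there to 61.9 to 78.2 CPM in naive and 27.6 to 40.8 CPM in CpG samples. Most of that CpG sum was Il7r, with a mean of 26.8 CPM. Il7r had 42, 14 and 35 naive and 75, 52 and 100 CpG reads and was not called. Another 5 of the 10, Cd4 among them, were at 0 in every CpG sample. On the Cast allele the list summed to 61.3 to 254 CPM in naive and 19.7 to 28.0 CPM in CpG samples, and Il7r was called lower. In bulk RNA, fewer cells of a type and less RNA per cell cannot be told apart. The part of these cells in the changes of the pathway genes was not tested.

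The mevalonate pathway turns acetyl-CoA into the isoprenoid farnesyl diphosphate. All 7 of its genes were called higher on the 129 allele, by log2 1.59 to 4.26. All 6 that could be tested were called higher on the Cast allele, by log2 1.21 to 4.11. Of all tested genes 28.2% were called higher on the 129 and 30.7% on the Cast allele. Hmgcs1 and Fdps on the 129 allele passed the filter on low counts through their CpG samples only. So did Mvd, Idi1 and Fdps on the Cast allele, and these calls are no independent sign of a change. Idi1, which interconverts the isoprenoid isomers, had 92, 161 and 83 naive reads and 3016, 1790 and 3222 CpG reads on the 129 allele. Its Cast reads were 7, 9 and 13 in naive and 273, 90 and 282 in CpG samples. The groups were far apart on both alleles, and CpG replicate 2 was the lowest CpG sample on both. Its level went from 49.4 ± 15.2 to 948 ± 272 CPM (SD, n = 3) on the 129 allele, a log2 change of 4.26 (SE 0.33, adjusted p = 7.75e-05 by edgeR). The Cast log2 change was 4.11 (SE 0.51, adjusted p = 0.000104 by edgeR), where Idi1 passed the filter on low counts through its CpG samples only.

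Fdps, which makes farnesyl diphosphate, had few naive reads, namely 5, 8 and 7 on the 129 allele and 6, 11 and 13 on the Cast allele. In CpG samples Fdps had 110, 56 and 86 reads on the 129 allele and 135, 88 and 143 on the Cast allele. It rose by log2 3.30 (SE 0.38, adjusted p = 0.000271 by edgeR) and 3.25 (SE 0.34, adjusted p = 3.38e-05 by edgeR), so the alleles differed by less than either standard error. Fdps passed the filter on low counts through its CpG samples only on both alleles, so these calls add nothing to the reads given above. Hmgcs1, an early synthase of the pathway, had 11, 30 and 5 naive reads and 66, 153 and 78 CpG reads on the 129 allele. Cast reads of Hmgcs1 were 88, 92 and 78 in naive and 1260, 468 and 1302 in CpG samples. CpG replicate 2 was thus the highest CpG sample on the 129 allele and the lowest on the Cast allele. The log2 change of Hmgcs1 was 2.38 (SE 0.59, adjusted p = 0.0126 by edgeR) on the 129 allele and 3.21 (SE 0.36, adjusted p = 5.46e-05 by edgeR) on the Cast allele. The filter let Hmgcs1 into the 129 test through its CpG samples only. Without naive replicate 1 the 129 call was lost, at a log2 change of 2.19 (adjusted p = 0.0515 by edgeR).

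Acat2, an acetoacetyl-CoA thiolase that feeds the pathway, was measured on the 129 allele only, with 51, 64 and 43 naive reads and 371, 267 and 390 CpG reads. Acat2 rose by log2 2.37 (SE 0.19, adjusted p = 5.95e-05 by edgeR). The kinases Mvk and Pmvk and the decarboxylase Mvd, which act between Hmgcs1 and Idi1, rose by log2 1.94, 1.59 and 2.22 on the 129 allele and by 1.70, 1.21 and 2.63 on the Cast allele. Exons of Idi1, Hmgcs1 and Fdps overlap other annotated genes, on the opposite strand for Idi1 and Hmgcs1, and whether strand was used in counting is not given in the sources used here. This held for 11 of the 34 genes, 8 of them on the opposite strand: Cyp51, Elovl1, Fdft1, Hmgcs1, Idi1, Lss, Scap and Srebf1.

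From squalene to cholesterol, all 11 genes rose on the 129 allele, and 8 of the 9 tested rose on the Cast allele. Of all tested genes 28.2% were called higher on the 129 and 30.7% on the Cast allele. Fdft1 passed the filter on low counts on the 129 allele through its CpG samples only. Sqle, the squalene epoxidase and a control point of the pathway, had 18, 25 and 13 naive reads and 439, 261 and 351 CpG reads on the 129 allele. Cast reads of Sqle were 15, 56 and 15 in naive and 409, 325 and 467 in CpG samples. Naive replicate 2 was the highest naive sample and CpG replicate 2 the lowest CpG sample on both alleles, with no overlap of the groups. Sqle went from 8.22 ± 1.98 to 124 ± 32.7 CPM (SD, n = 3) on the 129 allele, a log2 change of 3.90 (SE 0.27, adjusted p = 3.09e-05 by edgeR). Its Cast change was log2 3.48 (SE 0.39, adjusted p = 5.73e-05 by edgeR).

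Cyp51, the lanosterol demethylase, had 220, 364 and 155 naive reads and 3165, 1750 and 2741 CpG reads on the 129 allele. From the Cast allele Cyp51 had 145, 259 and 130 naive reads and 2798, 1744 and 2960 CpG reads. The same order over samples as for Sqle was seen, with replicate 2 highest among naive and lowest among CpG samples. Cyp51 rose by log2 3.07 (SE 0.34, adjusted p = 0.000395 by edgeR) and 3.49 (SE 0.28, adjusted p = 7.21e-06 by edgeR). Lss, which closes the sterol ring to lanosterol, had 119, 131 and 71 naive and 761, 506 and 787 CpG reads on the 129 allele, and 66, 115 and 55 naive and 616, 395 and 575 CpG reads on the Cast allele. Lss rose by log2 2.36 (SE 0.23, adjusted p = 0.000142 by edgeR) and 2.43 (SE 0.25, adjusted p = 3.69e-05 by edgeR).

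Between these steps Fdft1, the squalene synthase, rose by log2 2.40 and 1.96 on the 129 and Cast alleles. Msmo1, a sterol methyl oxidase, rose by 2.37 and 2.07, Sc5d, a sterol desaturase, by 1.62 and 1.76, and Dhcr7, which makes cholesterol in its last step, by 1.25 and 1.51. Hsd17b7, a sterol ketoreductase, had 86, 38 and 74 naive and 571, 181 and 581 CpG reads on the 129 allele, so that replicate 2 was lowest in both groups. The Cast reads were 78, 129 and 84 in naive and 444, 522 and 459 in CpG samples, and replicate 2 was highest in both groups. Hsd17b7 rose by log2 2.40 (SE 0.56, adjusted p = 0.013 by edgeR) and 1.96 (SE 0.18, adjusted p = 1.52e-05 by edgeR). With no filter on low counts the 129 change of Hsd17b7 was 2.41 and no longer called (adjusted p = 0.0525 by edgeR).

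Tm7sf2, a sterol reductase whose step the lamin B receptor can also carry out, was called on 1 allele. Its reads were 18, 17 and 8 in naive and 38, 29 and 38 in CpG samples on the 129 allele, a log2 change of 0.97 (SE 0.34, adjusted p = 0.0455 by edgeR). That call was lost in each of the 6 fits that left out 1 library (edgeR adjusted p from 0.0571 to 0.117), without replicate 2 of both groups (0.0905), in DESeq2 (0.079) and with no filter (0.0744). The groups overlapped for the Cast allele, with 29, 27 and 15 naive and 22, 33 and 30 CpG reads, and the log2 change was -0.07 (SE 0.32, adjusted p = 0.865 by edgeR). The difference between the alleles itself, a log2 change of the Cast to 129 ratio of -1.05 (SE 0.41), did not pass (adjusted p = 0.389 by edgeR). Exons of Tm7sf2 overlap those of Vps51 on the same strand.

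X-linked Ebp, a sterol isomerase, and Nsdhl, a sterol dehydrogenase, allow the active and the inactive X chromosome to be compared. On the active 129 X chromosome Ebp had 128, 150 and 110 naive reads and 222, 210 and 275 CpG reads. Nsdhl had 38, 35 and 33 naive reads and 110, 88 and 144 CpG reads there. Neither gene's groups overlapped on the 129 allele, as for 64.8% of all genes tested there. Nsdhl rose by log2 1.35 (SE 0.23, adjusted p = 0.00201 by edgeR), from 15.8 ± 1.10 to 40.3 ± 9.56 CPM (SD, n = 3). Ebp rose by log2 0.54 (SE 0.15, adjusted p = 0.0175 by edgeR), the smallest change among the 25 called genes. The call of Ebp was lost without naive replicate 1 (log2 0.51, adjusted p = 0.0561 by edgeR), without naive replicate 3 (0.51, 0.0555) and without CpG replicate 3 (0.43, 0.0698).

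On the inactive Cast X chromosome Ebp had 3, 2 and 3 reads in naive and 7, 7 and 7 in CpG samples. Nsdhl had 1, 1 and 1 Cast reads in naive and 5, 14 and 6 in CpG samples. Every CpG sample was thus above every naive sample for both genes, at read numbers too low for the edgeR fit of the Cast tables. Relative to library size the Cast reads were 2.11 times as high for Ebp (95% counting interval 0.899 to 5.52) and 6.71 times for Nsdhl (2.05 to 34.7). The same ratios on the active allele were 1.42 (1.26 to 1.62) and 2.52 (2.02 to 3.17). Such intervals reflect the counting of reads alone and are too narrow where 1 molecule gave several reads, since no molecular identifiers are given.

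The Cast share of Ebp reads was 2.29%, 1.32% and 2.65% in naive and 3.06%, 3.23% and 2.48% in CpG samples, with 95% Wilson intervals between 0.362% and 7.52% over the 6 samples. The group means were 2.09% ± 0.692 and 2.92% ± 0.390 (SD, n = 3), a difference of 0.835 percentage points (two-sided exact permutation p = 0.2), and of 0.449 points without naive replicate 2. For Nsdhl the Cast share was 2.56%, 2.78% and 2.94% in naive and 4.35%, 13.7% and 4.0% in CpG samples, on 34 to 150 reads a sample. Its Wilson interval was 8.36% to 21.7% in CpG replicate 2 and reached from 0.454% to 14.9% over the naive samples. The mean Nsdhl share went from 2.76% ± 0.189 to 7.36% ± 5.52 (SD, n = 3), a difference of 4.60 points (two-sided exact permutation p = 0.1, the lowest value this design allows). Without CpG replicate 2 the difference was 1.41 points. The edgeR test of the ratio gave a log2 change of 1.23 (SE 0.78, adjusted p = 0.67) for Nsdhl and 0.49 (SE 0.34, adjusted p = 0.857) for Ebp. The edgeR test called no change of the ratio for either gene. The permutation test could not call one at the threshold used here, since its p cannot fall below 0.1, so no conclusion is drawn from it. In the authors' deposited table the ratio of the inactive to the active X chromosome was 0.0178 in naive and 0.0262 in stimulated cells for Ebp, and 0.0242 and 0.0637 for Nsdhl.

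**Figure D2:**
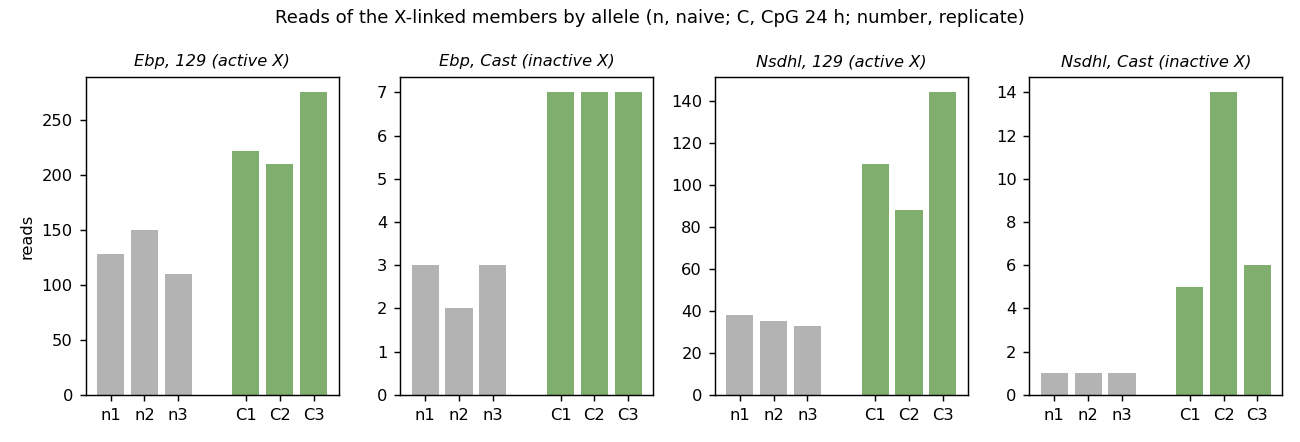
Reads of Ebp and Nsdhl in each sample (vertical axes, each with its own scale) on the active 129 and the inactive Cast X chromosome, for naive replicates 1 to 3 (n1 to n3, grey) and CpG replicates 1 to 3 (C1 to C3, green). On the Cast allele no bar exceeds 14 reads, and the 14 reads of Nsdhl in CpG replicate 2 stand above the 5 and 6 of the other CpG samples.

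The genes of the SREBP proteins and of Scap were not called on either allele. Of the 4 regulators tested on the 129 allele, 0 were called in edgeR or in DESeq2, and 0 had an unadjusted p under 0.05. For the Cast allele 1 of 5 was called by both tools, and it was Insig1. Of all tested genes edgeR called 55.2% on the 129 allele and 62.2% on the Cast allele, higher or lower. Srebf1 had 58, 91 and 56 naive reads and 85, 114 and 113 CpG reads on the 129 allele, with overlapping levels of 30.3 ± 6.70 and 36.8 ± 5.42 CPM (SD, n = 3). For Srebf1 the Cast tables held 68, 74 and 70 naive reads and 68, 114 and 119 CpG reads. Its log2 change was 0.28 (SE 0.22, adjusted p = 0.323 by edgeR) and 0.16 (SE 0.23, adjusted p = 0.562 by edgeR). Reads per gene do not separate the 2 main transcripts of Srebf1.

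Srebf2, whose protein acts mainly on sterol genes, had 196, 318 and 173 naive reads and 312, 360 and 350 CpG reads on the 129 allele. From the Cast allele came 192, 311 and 189 naive and 326, 365 and 324 CpG reads of Srebf2. Naive replicate 2 was the highest naive sample on both alleles, and the groups overlapped. The log2 change was 0.25 (SE 0.19, adjusted p = 0.295 by edgeR) and 0.23 (SE 0.17, adjusted p = 0.284 by edgeR). Without naive replicate 2 Srebf2 was called higher on both alleles, by log2 0.50 (adjusted p = 0.02 by edgeR) and 0.46 (adjusted p = 0.0227 by edgeR). Without replicate 2 of both groups it was called on the 129 allele (log2 0.43, adjusted p = 0.0401 by edgeR).

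Scap, the escort protein, had 91, 95 and 55 naive and 121, 154 and 107 CpG reads on the 129 allele, and 77, 94 and 63 naive and 116, 149 and 115 CpG reads on the Cast allele. Its log2 change was 0.35 (SE 0.22, adjusted p = 0.218 by edgeR) and 0.37 (SE 0.19, adjusted p = 0.112 by edgeR). The Cast groups of Scap did not overlap in CPM, while those on the 129 allele did.

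Insig1 and Insig2, both of which retain Scap in the endoplasmic reticulum, took different courses. Insig1, itself a target of SREBP, had 159, 201 and 82 naive and 792, 464 and 649 CpG reads on the Cast allele. Its level went from 55.9 ± 19.0 to 195 ± 53.3 CPM (SD, n = 3), up by log2 1.80 (SE 0.28, adjusted p = 0.000407 by edgeR). Insig2 had 28, 50 and 18 naive and 28, 25 and 25 CpG reads on the 129 allele, and 26, 36 and 48 naive and 23, 26 and 40 CpG reads on the Cast allele. Its log2 change was -0.60 (SE 0.36, adjusted p = 0.195 by edgeR) and -0.67 (SE 0.35, adjusted p = 0.127 by edgeR), with overlapping groups. The difference between Insig1 and Insig2 was not tested. Stard4, which carries cholesterol between membranes, had 112, 151 and 114 naive and 679, 511 and 740 CpG reads on the 129 allele and 201, 238 and 126 naive and 1348, 970 and 1358 CpG reads on the Cast allele. Stard4 rose by log2 2.02 (SE 0.18, adjusted p = 8.27e-05 by edgeR) and 2.38 (SE 0.20, adjusted p = 1.07e-05 by edgeR).

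**Figure D3:**
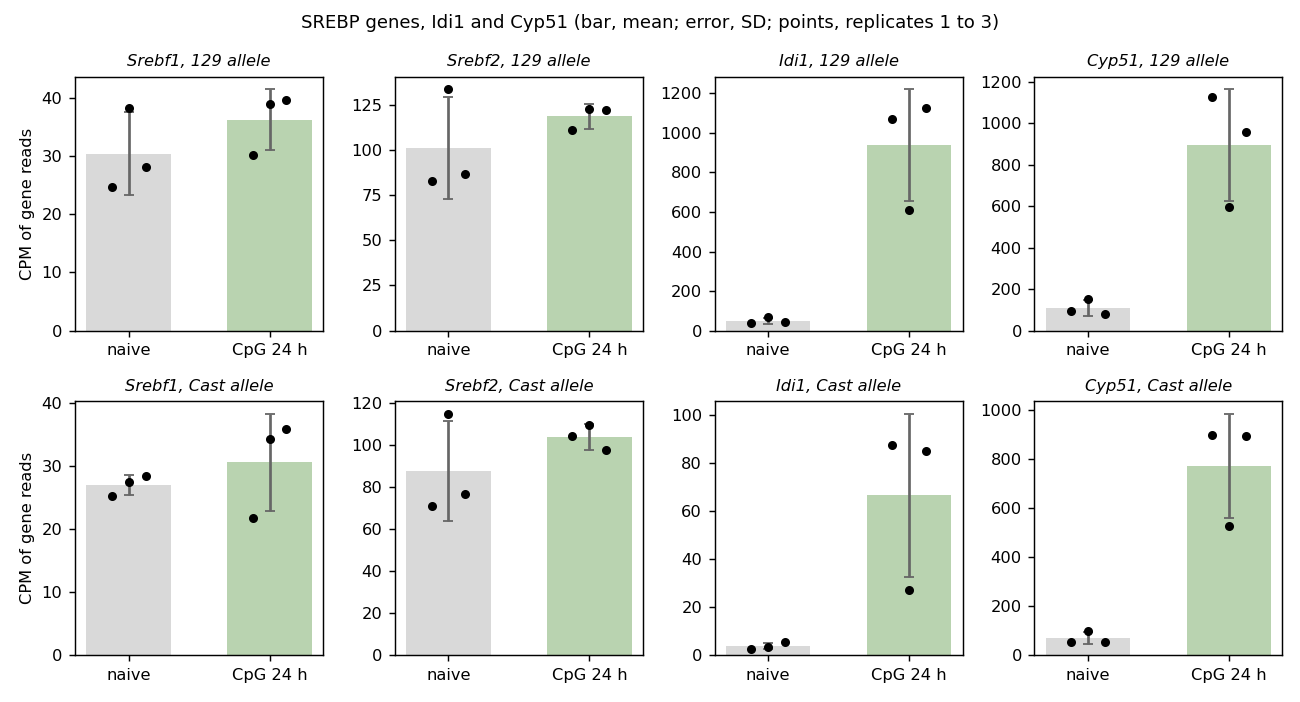
CPM of gene reads, without TMM factors (vertical axes, each with its own scale), of Srebf1, Srebf2, Idi1 and Cyp51 in naive and CpG samples, 129 allele above and Cast allele below. Bars are means, error bars SD (n = 3) and points replicates 1 to 3 from left to right. The points of Srebf1 and Srebf2 overlap between the groups, while all CpG points of Idi1 and Cyp51 lie above all naive points.

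The 3 genes that make palmitate from citrate rose wherever they were measured. On the 129 allele 28.2% of all tested genes were called higher, and on the Cast allele 30.7%. Acly, which cleaves citrate to acetyl-CoA, had 626, 577 and 566 naive and 1374, 1294 and 1559 CpG reads on the 129 allele and 649, 663 and 544 naive and 1502, 1360 and 1737 CpG reads on the Cast allele. Fasn, the fatty acid synthase, had 163, 173 and 153 naive and 703, 729 and 777 CpG reads on the 129 allele and 172, 201 and 162 naive and 649, 686 and 776 CpG reads on the Cast allele. The replicates of both genes lay close together in each group. Acly rose by log2 0.92 (SE 0.12, adjusted p = 0.000487 by edgeR) and 0.97 (SE 0.12, adjusted p = 0.000109 by edgeR), and Fasn by 1.84 (SE 0.11, adjusted p = 1.77e-05 by edgeR) and 1.64 (SE 0.12, adjusted p = 4.39e-06 by edgeR). Acaca, the carboxylase that commits acetyl-CoA to fatty acid synthesis, was measured on the Cast allele only, with 279, 315 and 231 naive and 1000, 916 and 1020 CpG reads. Acaca rose by log2 1.50 (SE 0.12, adjusted p = 6.4e-06 by edgeR).

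Elongases and desaturases did not move as 1 group: on each allele 4 of 7 rose, and on the Cast allele 1 fell. Of all tested genes 28.2% rose on the 129 allele, and 30.7% rose and 31.5% fell on the Cast allele. The 4 include Fads2 on both alleles and Elovl6 on the 129 allele, which passed the filter through their CpG samples only. Fads2, the first desaturase of polyunsaturated fatty acid synthesis, had 0, 0 and 0 naive and 48, 29 and 55 CpG reads on the 129 allele, at least 11.4-fold higher against a floor of 3 reads per library. Cast reads of Fads2 were 0, 2 and 0 in naive and 40, 20 and 38 in CpG samples, a ratio of 39.4 (95% counting interval 10.6 to 330). Like Fdps, Fads2 passed the filter on low counts through its CpG samples only on both alleles. Fads1, the desaturase that acts after it, had 28, 24 and 22 naive and 176, 118 and 175 CpG reads on the 129 allele, and 36, 33 and 26 naive and 178, 122 and 200 CpG reads on the Cast allele. Fads1 rose by log2 2.33 (SE 0.23, adjusted p = 0.000144 by edgeR) and 2.06 (SE 0.23, adjusted p = 5.25e-05 by edgeR).

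Elovl6, which lengthens palmitate to stearate, had 9, 9 and 5 naive and 129, 77 and 58 CpG reads on the 129 allele and 22, 34 and 19 naive and 303, 170 and 356 CpG reads on the Cast allele. It rose by log2 3.18 (SE 0.41, adjusted p = 0.000478 by edgeR) and 3.13 (SE 0.31, adjusted p = 2.63e-05 by edgeR). On the 129 allele Elovl6 passed the filter through its CpG samples only, so its call there follows in part from the filter. Elovl5, an elongase of polyunsaturated fatty acids, had 222, 186 and 259 naive and 231, 314 and 296 CpG reads on the 129 allele and 574, 448 and 517 naive and 594, 578 and 649 CpG reads on the Cast allele. Its groups overlapped, with log2 changes of -0.02 (SE 0.21, adjusted p = 0.937 by edgeR) and -0.11 (SE 0.14, adjusted p = 0.541 by edgeR). The 129 change of Elovl5 was 0.20 without naive replicate 3 and 0.10 without CpG replicate 1. Elovl1, an elongase of very long chains, had at most 27 reads in any library and log2 changes of 1.17 (SE 0.48, adjusted p = 0.0723 by edgeR) and 0.86 (SE 0.54, adjusted p = 0.187 by edgeR). Without naive replicate 2 Elovl1 was called on the 129 allele (log2 1.66, adjusted p = 0.045 by edgeR).

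The stearoyl-CoA desaturases Scd1 and Scd2, which make monounsaturated fatty acids, did not move together: Scd2 was called higher on both alleles and Scd1 lower on the Cast allele. Scd2 had 251, 367 and 203 naive and 1188, 1462 and 1128 CpG reads on the 129 allele, and 102, 190 and 86 naive and 723, 950 and 668 CpG reads on the Cast allele. Unlike for Sqle and Cyp51, replicate 2 was the highest sample of Scd2 in both groups. Scd2 rose by log2 1.88 (SE 0.19, adjusted p = 0.000152 by edgeR) and 2.31 (SE 0.25, adjusted p = 5.15e-05 by edgeR).

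Scd1 had 1787, 1661 and 1884 naive and 1450, 2122 and 1579 CpG reads on the 129 allele, levels of 801 ± 130 and 608 ± 125 CPM (SD, n = 3) that overlapped. Scd1 reads from the Cast allele were 2022, 1738 and 1846 in naive and 947, 1673 and 1077 in CpG samples, and the gene fell there without overlap from 727 ± 88.2 to 378 ± 120 CPM. Its log2 change was -0.40 (SE 0.18, adjusted p = 0.101 by edgeR) on the 129 allele and -0.94 (SE 0.21, adjusted p = 0.00392 by edgeR) on the Cast allele. With the replicate number as a block the 129 change of Scd1 was -0.41 and called (adjusted p = 0.0429 by edgeR). It was also called there without CpG replicate 2 (-0.59, adjusted p = 0.0228 by edgeR) and without replicate 2 of both groups (-0.70, adjusted p = 0.00908 by edgeR).

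The alleles of a gene were compared directly by testing the change of the Cast to 129 ratio over 10025 matched genes. In edgeR 0.948% of them were called, and 0 of the 31 pathway genes in both tables. DESeq2 also called 0, and 4 of the 31, namely Cyp51, Scd1, Scd2 and Tm7sf2, had an unadjusted edgeR p under 0.05. With the replicate number as a block 7.62% of matched genes and 3 of the 31 pathway genes were called, so that count is no result about the list. The Cast share of Scd1 was 53.1%, 51.1% and 49.5% in naive and 39.5%, 44.1% and 40.5% in CpG samples, with no overlap. Its log2 ratio change was -0.57 (SE 0.10, adjusted p = 0.0542 by edgeR), and -0.57 (SE 0.09, adjusted p = 1.13e-06 by edgeR) with the block. The share of Scd2 was 28.9%, 34.1% and 29.8% in naive and 37.8%, 39.4% and 37.2% in CpG samples, a log2 ratio change of 0.46 (SE 0.12, adjusted p = 0.172 by edgeR), and of 0.45 (SE 0.13, adjusted p = 0.0151) with the block. Cyp51 went from 39.7%, 41.6% and 45.6% to 46.9%, 49.9% and 51.9%, a log2 ratio change of 0.43 (SE 0.12, adjusted p = 0.203 by edgeR), and of 0.43 (SE 0.11, adjusted p = 0.00574) with the block. For all 3 genes the shares of the groups did not overlap. The calls of Cyp51 and Scd2 rested on the block, while Scd1 was also called without it when no filter on low counts was applied (adjusted p = 0.0401 by edgeR).

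Levels on the alleles of a gene need not be comparable, since each allele was counted with its own annotation. How a read was given to a strain is also not known here. The source of unequal shares was not tested. Over the 29 autosomal genes the mean Cast share ran from 7.84% for Idi1 to 87.2% for Hmgcs1, and 18 lay between 40% and 60%. Fads2 is not counted among the 18, because naive replicates 1 and 3, without reads of it, entered its mean as 0%. Its mean share in CpG samples was 42.4%. Idi1 and Hmgcs1 were the 2 of 29 below 20% or above 80%, against 6.03% of 7910 matched genes with at least 300 reads. The autosomal gene total was 51.9% to 53.6% Cast in every sample. The Hmgcs1 share differed between replicates more than between groups, with 88.9%, 75.4% and 94% in naive and 95%, 75.4% and 94.3% in CpG samples. Replicate 2 was likewise apart for Hsd17b7, with 77.2% against 47.6% and 53.2% in naive and 74.3% against 43.7% and 44.1% in CpG samples.

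Samples with the number 2 stood apart for the sterol genes, a pattern chosen after its values were seen. Of the 18 mevalonate and cholesterol genes called higher on the 129 allele, CpG replicate 2 was the lowest CpG sample for 17, against 36.4% of all tested genes. It was the lowest for 13 of 14 on the Cast allele, against 34.8%. Naive replicate 2 was the highest naive sample for 12 of 18 and 10 of 14, against 35.2% and 35.5%. Among all genes called higher, CpG replicate 2 was lowest for 41.1% and 38.6%, and naive replicate 2 highest for 33.98% and 32.64%. For the fatty acid genes called higher, CpG replicate 2 was lowest for 3 of 6 on the 129 and 5 of 7 on the Cast allele. Naive replicate 2 was highest for 1 of these 6 and 5 of these 7, so on the Cast allele the pattern was not limited to sterol genes. The 18 genes summed to 477, 633 and 451 CPM in the naive and 3848, 2328 and 3736 CPM in the CpG samples on the 129 allele. The 14 genes on the Cast allele summed to 295, 430 and 306 CPM in the naive and 2474, 1531 and 2414 CPM in the CpG samples. A few genes with many reads make up most of both sums. The groups stayed apart in every replicate, at a smaller distance in replicate 2.

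The difference between same-numbered samples, on the scale of log2(CPM + 1), had a median of 2.40, 1.51 and 2.51 over the 18 genes for replicates 1, 2 and 3 on the 129 allele, and of 2.68, 1.56 and 2.56 over the 14 on the Cast allele. Over all genes called higher the medians were 1.28, 1.29 and 1.31 on the 129 allele and 1.26, 1.24 and 1.25 on the Cast allele. For the fatty acid genes called higher they were 2.14, 1.90 and 2.15 over 6 genes on the 129 allele and 1.97, 1.58 and 2.31 over 7 on the Cast allele. The sterol and fatty acid sets include genes that passed the filter on low counts through their CpG samples only. Red pulp macrophage markers summed to 3115 CPM in naive replicate 2 against 4319 and 6830 in the others on the 129 allele, and B cell markers to 13424 against 10406 and 11093. The part of these levels in the pattern was not tested. Without replicate 2 of both groups 26 of the 32 genes were called on the 129 allele and 24 of 31 on the Cast allele, with medians of log2 2.08 and 2.06.

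**Figure D4:**
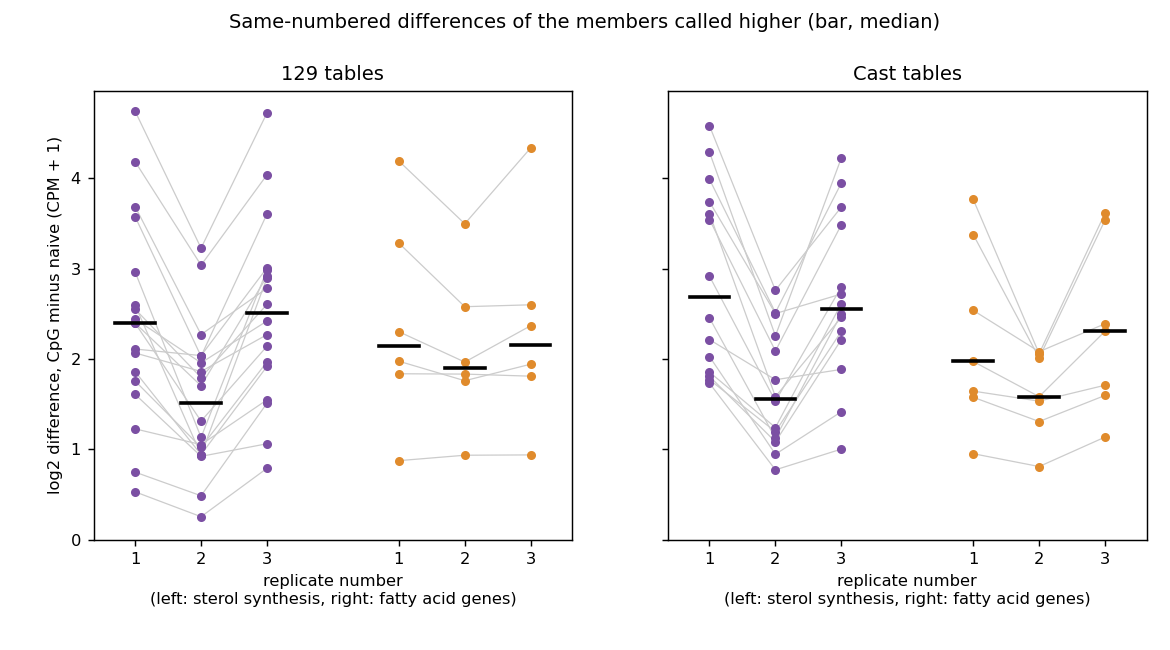
Log2 difference between the CpG and the naive sample of the same number (vertical axis, log2 of CPM + 1) for each sterol (purple) and fatty acid (orange) gene called higher, by replicate number. Grey lines join a gene and black bars are medians. Genes that passed the filter on low counts through their CpG samples only are included. The sterol medians of replicate 2, 1.51 on the 129 and 1.56 on the Cast allele, lie below those of replicates 1 and 3.

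Other genes of the same pathways, from lists outside the 34, were read in the same way, against the 28.2% of all tested genes called higher and 27% lower on the 129 allele and the 30.7% and 31.5% on the Cast allele. Of other sterol and isoprenoid genes 5 of 8 tested rose and 1 fell on the 129 allele, and 7 of 7 rose on the Cast allele. Pdss1, which makes the tail of ubiquinone, rose by log2 1.88 and 2.05, and Lbr, the lamin B receptor, by 1.13 and 0.96. Of the genes that process or degrade SREBP and its partners 1 of 8 rose and 3 fell on the 129 allele, and 1 of 7 rose and 1 fell on the Cast allele, where 28.2% of all tested genes rose and 27% fell on the 129 and 30.7% and 31.5% on the Cast allele, so these counts are no result about the list. Erlin1, which acts in endoplasmic reticulum protein degradation, rose by log2 0.57 and 0.71. Over the 6 fits without 1 library the edgeR adjusted p of Erlin1 reached 0.0828 and 0.0637, with the call lost without naive replicate 1 or CpG replicate 1 on both alleles, without naive replicate 2 on the 129 and without CpG replicate 3 on the Cast allele. X-linked Mbtps2, the protease that makes the second cut in SREBP, had 78, 90 and 53 naive and 86, 91 and 98 CpG reads on the active allele, a ratio of 0.973 (95% counting interval 0.812 to 1.17), and 4, 8 and 1 against 3, 6 and 5 on the inactive allele.

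Of the genes of sterol uptake, transport and efflux 4 of 19 rose and 11 fell on the 129 allele, and 5 of 20 rose and 13 fell on the Cast allele, beside 27% and 31.5% of all tested genes that fell. Those named are Nr1h3, the sterol-sensing receptor LXR alpha, Abca1, a cholesterol exporter, Apoe, a lipid carrier, and Cyp27a1, a sterol hydroxylase. Abca1 had 1097, 1168 and 1252 naive and 21, 49 and 21 CpG reads on the 129 allele and fell by 5.61 and 4.09 on the log2 scale (adjusted p = 4.91e-05 and 2.77e-05 by edgeR). Nr1h3 had 77, 56 and 62 naive and 2, 0 and 1 CpG reads on the 129 allele, and on the Cast allele, with 0 reads in every CpG sample, it was lower by at least 31.4-fold. Cyp27a1 was lower by at least 11.8-fold on the Cast allele, and Apoe fell by 5.63 and 4.60 on the log2 scale. Without replicate 2 of both groups the 129 change of Apoe was -5.72 and not called (adjusted p = 0.0621 by edgeR). These genes are also expressed by macrophages, whose summed markers went from 3115 to 6830 CPM in naive to 25.2 to 34.5 CPM in CpG samples, and the part of that in these falls was not tested.

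Of other fatty acid synthesis genes 7 of 12 rose and 2 fell on the 129 allele, and 8 of 13 rose and 2 fell on the Cast allele, beside 28.2% and 30.7% of all tested genes that rose. Slc25a1, which exports citrate from mitochondria to Acly, rose by log2 1.78 and 1.75 (adjusted p = 0.00036 and 2.55e-05 by edgeR). Acacb, the carboxylase linked to fatty acid oxidation, fell by 1.47 and 3.58 on the log2 scale, and Lpin1, a phosphatidate phosphatase, by 2.38 and 1.82. On the 129 allele the call of Acacb was lost in 4 of the 6 fits without 1 library (all but those without naive replicate 3 or CpG replicate 2; highest adjusted p = 0.0824 by edgeR), and that of Lpin1 in 5 (all but that without naive replicate 3; highest 0.102). X-linked Acsl4, an acyl-CoA synthetase, had 227, 206 and 188 naive and 1019, 605 and 1096 CpG reads on the active allele and 5, 6 and 9 against 17, 17 and 31 on the inactive allele. It rose by log2 1.80 and 1.33 (adjusted p = 0.000463 and 0.0275 by edgeR), and the second call was lost without naive replicate 1, naive replicate 2 or CpG replicate 3 (highest 0.119). X-linked Mid1ip1 had too few reads to be tested, at most 10 in a library. Of mitochondrial fatty acid oxidation genes 4 of 12 rose and 1 fell on the 129 allele, and 6 of 11 rose and 1 fell on the Cast allele. All tested genes rose in 28.2% of cases on the 129 allele, close to the 4 of 12, and in 30.7% on the Cast allele. Acadvl, the dehydrogenase of very long chains, rose by 0.88 and 0.87 and Hadha, a subunit of the trifunctional protein, by 0.55 and 0.39. Leaving out 1 library took the call from Acadvl on both alleles (without naive replicate 2, naive replicate 3 or CpG replicate 3, and on the 129 allele also without CpG replicate 1; highest adjusted p = 0.075 and 0.064 by edgeR) and from Hadha on the Cast allele (without naive replicate 3 or CpG replicate 2; highest 0.0601).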

How the data were processed

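RNA was extracted with TRIzol and sequenced from libraries of a stranded total RNA kit, per the labels. The deposited tables hold whole-number read counts per gene, 1 for the 129 and 1 for the Cast annotation of each sample, with no normalization, per the file headers and values. The submitters' processing notes list STAR, featureCounts, Subread 2.0.0 and mm10 without roles. How a read was given to a strain is not given in the sources used here. The authors' deposited table of chosen genes holds RPKM, a score named SRPM in its header, an allele's reads scaled to library size, and the ratio of the X chromosomes. Gene counts summed to 1987266 to 2928236 per sample in the 129 tables and 2465073 to 3321753 in the Cast tables, and reads in no annotated gene made up 44.5% to 67.1% of aligned reads.

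Each table was fitted with edgeR 4.0.16 in R 4.3.3 (quasi-likelihood, robust, TMM, filterByExpr, Benjamini-Hochberg over all tested genes, threshold 0.05), and the fits were tested on simulated data. The quasi-likelihood test gives no standard error. The SE of a log2 change was its absolute value divided by the square root of the F statistic. For genes with few reads this SE can be smaller than the p-value implies. The ratio of alleles was tested as an interaction with a term for each sample. Alternatives were RLE size factors, DESeq2 1.42.0, no filter, a replicate block, leaving out each library and, added after seeing the data, leaving out replicate 2. Where libraries of a group had 0 reads, a floor of 3 reads per library was used. Named genes were the regulators, the X-linked genes, those called in 1 table only and the largest changes of each role, and from other lists up to 4 called in both tables with a mean of at least 50 reads. Some genes that this rule selects are not reported here. The genes and lists were chosen with earlier results of these data known. The labels do not say that samples came from separate mice, so p-values measure only the spread between these samples. Same-numbered samples deviated together. Their r was 0.566 to 0.734 in the 129 tables, 0.257 to 0.374 in the Cast tables and 0.694 to 0.774 for the autosomal ratio. Samples with different numbers had r below 0 throughout, so the numbers in the titles were taken to pair the samples. The main tests did not use this pairing, so their p-values and calls ignore it. Only the replicate block, given as an alternative, used it. Exon overlaps were read from the GENCODE annotation of the reference mouse genome.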

Additional observations from a re-analysis of the deposited data

Results flagged for a closer look

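The Cast to 129 ratio of 3 pathway genes was called changed with CpG by the test with the replicate number as a block. That block compares the CpG and naive ratios within same-numbered samples. The same test called 7.62% of all 10025 matched genes, beside 3 of the 31 pathway genes, so the count is no result about the list. The log2 ratio change was 0.43 for Cyp51, -0.57 for Scd1 and 0.45 for Scd2. Without the block and with the filter on low counts none of the 3 passed in edgeR (adjusted p = 0.203, 0.0542 and 0.172), although each had an unadjusted p under 0.05. With no filter Scd1 passed without the block (adjusted p = 0.0401 by edgeR). Scd1 fell on the Cast allele while Scd2, a desaturase of the same family, rose on both, and their ratios moved in opposite directions.

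Abca1, outside the 34 genes, had a log2 ratio change of 1.44 (SE 0.17, adjusted p = 0.0169 by edgeR), with a Cast share of 51.9%, 55.2% and 49.8% in naive and 75.9%, 77.7% and 69.6% in CpG samples. Its reads fell on both alleles, to 21, 49 and 21 on the 129 and 66, 171 and 48 on the Cast allele. In 5 of the 6 fits without 1 library the call was lost, all but that without CpG replicate 3 (highest adjusted p = 0.0855 by edgeR). Summed macrophage markers fell between the same samples, and their part in the change was not tested.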

How the results depend on the processing

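Members called and their median log2 change kept their direction under RLE size factors, DESeq2, no filter and the replicate block: 23 to 26 genes were called on the 129 allele and 24 to 25 on the Cast allele. Leaving out 1 library gave 22 to 26 called genes and medians of 1.81 to 2.09 on the 129 allele, and 24 to 25 and 1.66 to 2.05 on the Cast allele; without replicate 2 of both groups the Cast median was 2.06 against 1.80. The replicate block changed the expression call of Scd1 on the 129 allele and of no other of the 34 genes. For the allele ratio, 95 genes were called by the main test, 764 with the replicate block, 14 to 26 when 1 library was left out and 3 without replicate 2, which leaves fewer samples. Of the pathway genes 0 were called for the ratio by the main test and in each fit without 1 library, 1 (Scd1, adjusted p = 0.0401) with no filter and 3 with the block. The Cast share difference ran from 0.449 to 1.12 points for Ebp and from 1.41 to 6.28 for Nsdhl when 1 library was left out; with same-numbered samples as pairs, a replicate block, the exact sign-flip p was 0.5 and 0.25, the smallest that 3 pairs allow being 0.25. Uncalled changes near 0 changed sign: Elovl5 on the 129 allele between -0.18 and 0.20, and at -0.30 without replicate 2, and Tm7sf2 on the Cast allele between -0.24 and 0.12, when 1 library was left out. Over 31 pathway genes and 11 alternative fits of the ratio, 29 of 339 values had the opposite sign and 0 of these were called. The cause of these changes was not tested. Cast reads of the X-linked genes were few, which widens the intervals on the inactive allele.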
